A study of Arabidopsis thaliana with 24 samples.

Results

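The first response of Arabidopsis thaliana root meristems to dexamethasone was read by setting the 3 arrays taken 0.5 h after seedlings were moved to the steroid against the 3 arrays of 0 h. These are 6 of the 24 arrays of a time course, and they were taken by their titles, without regard to any measured value. All 8 groups of the course (0, 0.5, 1, 2, 3, 4, 5 and 6 h, 3 arrays each) were of 1 genotype, seedlings of the Col-0 ecotype with the constructs pRPS5A::TMO5:GR x pRPS5A::LHW:GR, aged 4 days. The 0 h group carried both constructs too, and the RPS5A promoter that drives them is active in dividing cells in general rather than in vascular cells alone. Roots of seedlings moved to medium without the steroid, and roots without the constructs, were not analysed here, so that the move, the steroid and the 0.5 h that passed cannot be told apart. No label tells whether the 3 repeats of a time were grown as separate cultures, and a p-value may therefore measure technical spread between arrays only.

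As background, TMO5 and LHW are basic helix-loop-helix (bHLH) transcription factors that bind DNA as a pair and promote the divisions that widen the vascular tissue of embryo and root. A fusion to the glucocorticoid receptor domain (GR) stays in the cytoplasm until dexamethasone binds it, after which it enters the nucleus, so that the earliest changes in RNA are the ones nearest in time to that step. The pair is known to act through cytokinin production and through DOF factors such as DOF2.1, and it is restrained by SAC51-like (SACL) bHLH proteins, which compete with TMO5 for LHW and whose genes the pair itself activates.

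At 0.5 h, 24 genes had risen and 13 had fallen against 0 h, out of 16552 genes measured by probe sets with a single gene name. The rises were led by AT4G38650, a glycosyl hydrolase of family 10 (2.18 on the log2 scale, 4.54-fold), and the falls by AT3G57950 (-1.69). Genes with a known role among those that rose included the antagonist SACL2, the bHLH factor bHLH96, the MYB-like factor MYBC1 and several enzymes that act on pectin or other wall sugars. The 37 calls were 0.224% of the genes tested, with 0.145% called as rises and 0.0785% as falls (limma, adjusted p under 0.05 by Benjamini-Hochberg, all 24 arrays in the fit). Before adjustment, 641 genes were higher and 622 lower at p under 0.05, together 7.63% of genes.

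The call of these 37 genes leaned on the spread shared by all times. A fit of the 6 arrays alone called 0 genes with limma, with 905 at an unadjusted p under 0.05, and gave AT4G38650 the smallest adjusted p, 0.0502. Without 0.5 h array 2 the count was 17, without 0 h array 3 it was 64, and in the other fits that left out 1 array it lay from 25 to 28. A second quantile normalization of the gene table called 17 rises and 14 falls, which lowered the share of rises from 64.9% to 54.8%. In the 14 other alternatives computed gene by gene (13 for AT1G14250, which the filter on dim genes removes), 12 of the 37 genes stayed called throughout, 9 that rose and 3 that fell, and the other 25 lost the call in at least 1. Of the 37, 23 stayed called with array weights, 29 with median centring, 30 with a second quantile normalization and 25 without array 3 of both times. No change turned direction in the alternatives computed gene by gene. Where arrays were left out or weighted none could, since the groups do not overlap in any of the 37.

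The residual SD over all genes was between 0.197 and 0.215 for the 0 h arrays and between 0.174 and 0.179 for those of 0.5 h, beside 0.190 to 0.198 at 1 h and 0.152 to 0.165 at 6 h. On the first principal component, which held 18.8% of the variance, 0 h arrays 1 and 2 lay at -27.2 and -21.5 while 0 h array 3 lay at -5.16, next to 0.5 h array 3 at -5.49 and beyond the other 0.5 h arrays, both at -15.9. The part of this in the results was not tested, and calls that change without an array are given beside each gene below. Few cell type markers were measured: the mean log2 level over the 0 h arrays was 5.2 ± 0.36 (SD, n = 3) for the stem cell niche gene BBM, 4.55 ± 0.09 for the shoot gene RCA and 8.04 ± 0.42 for the root hair gene EXPA7. No marker of xylem, root cap or vascular initial cells was measured, and the values carry no detection calls, so the label of root meristem could be checked only in part. By mean level over all arrays, the root hair genes EXPA7 and EXPA18 lay at percentiles 95.7 and 86.5 of the genes measured. BBM lay at 63.8 and RCA at 62.3. Whether the samples held root hair cells beside the meristem was not tested. In a bulk sample such as this, fewer cells of a type and less RNA per cell cannot be told apart.

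Over all genes measured, the interquartile range of the change was -0.11 to 0.11 and the median change was 0.00. The 24 rises ran from 0.49 to 2.18 and the 13 falls from -0.46 to -1.69. Only 9 of the 37 moved by at least 1 on the log2 scale, 6 upwards and 3 downwards. In 29 of the 37 the mean level was above that of the median gene, and 1, AT1G14250, was among the dimmest 25% of genes. The arrays of 0 h and 0.5 h did not overlap in any of the 37, which was so for 1729 genes in all, or 10.4%.

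**Figure D1:**
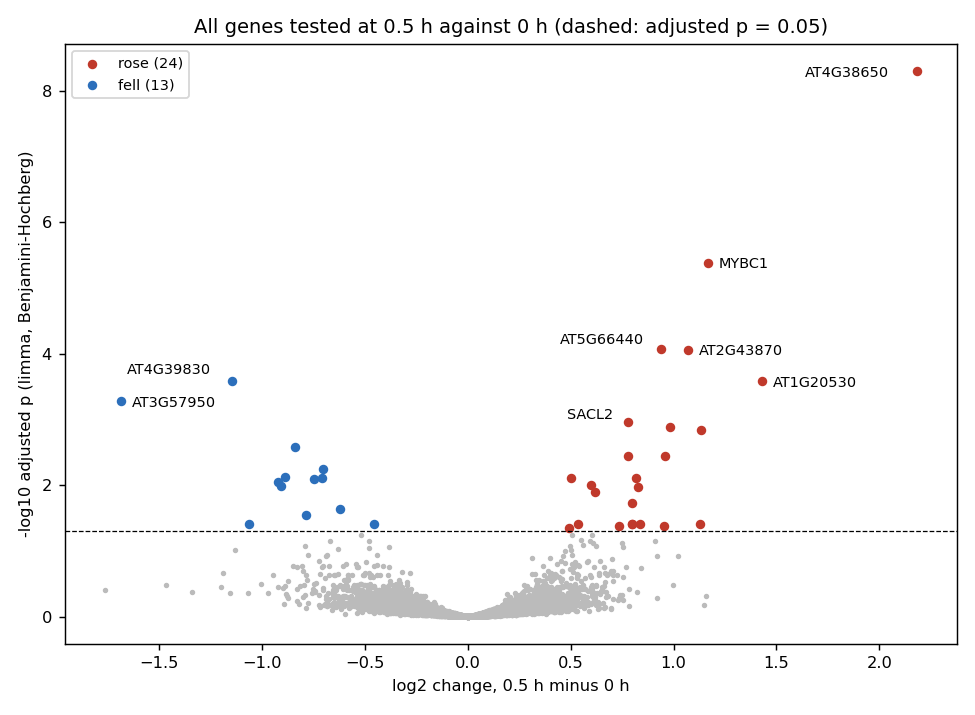
Each point is 1 of 16552 genes, with the log2 change from 0 h to 0.5 h on the x axis and -log10 of the limma adjusted p on the y axis; a dashed line marks an adjusted p of 0.05, and the called genes are red (rose) or blue (fell). AT4G38650 stands apart at 2.18, and several uncalled genes in grey changed as much as called ones.

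Among the genes of the TMO5 and LHW system itself, both measured SAC51-like antagonists rose. SACL2 (AT5G50010) had log2 values of 4.98, 5.02 and 5.27 in the 3 arrays of 0 h and 5.91, 5.71 and 5.99 in those of 0.5 h, a rise of 0.78 with a standard error (SE) of 0.11 and a limma adjusted p of 0.00111. SACL1 (AT5G09460) had 5.08, 5.48 and 5.40 at 0 h and 5.82, 5.84 and 5.78 at 0.5 h, a rise of 0.49 (SE 0.10) with a limma adjusted p of 0.0451. Every 0.5 h array lay above every 0 h array for both genes, with 0 h array 3 the highest 0 h value of SACL2 and 0 h array 1 the lowest of SACL1. SACL2 kept its call without any 1 array, and its adjusted p over all alternatives ran from 4.73e-04 to 0.354, the highest in the fit of the 6 arrays. SACL1 lost its call without 0 h array 1 or without any 1 of the 0.5 h arrays (limma adjusted p between 0.115 and 0.247, and between 0.0310 and 0.705 over all alternatives). SACL1 also missed the threshold in 6 other alternatives (0.0503 to 0.0993).

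The remaining measured genes of that system did not pass the test. LHW had log2 values of 7.27, 7.23 and 7.47 at 0 h and 7.38, 7.01 and 7.0 at 0.5 h, a change of -0.20 with a limma adjusted p of 0.719, and its arrays overlapped. The probe set reads the endogenous gene and may also read the introduced one, so it does not show how much fusion protein was present. The TMO5 relatives T5L3 (AT2G41130) and T5L2 (AT3G56770) changed by 0.41 and 0.26, with limma adjusted p of 0.624 and 0.706. In all, 5 of the 13 genes listed for the system were measured and 2 of them rose, beside 0.145% of all genes. The median change of the 5 was 0.41 beside 0.00 over all genes. The list was chosen with earlier results of these data known and was not tested as a set. TMO5 was not analysed here.

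DOF2.1 (AT2G28510), the DOF factor in the title of the series, had no call at this time. Its log2 values were 6.01, 6.48 and 6.47 at 0 h and 6.23, 6.37 and 6.73 at 0.5 h, which overlap, with a change of 0.12 and a limma adjusted p of 0.904. BGLU44, a beta-glucosidase gene among the known targets, changed by -0.08 (limma adjusted p 0.982). These were the 2 of 5 listed targets that were measured. Of the vascular DOF genes, 2 of 7 were measured, with -0.02 for PEAR2 and -0.08 for DOF2.2, and neither passed the test. Of the cytokinin response genes, 2 of 17 were measured, the response regulators ARR15 at -0.20 and ARR16 at 0.33, neither of them called. Since 0.224% of all genes were called, so few members are too few to read an absence of calls. ARR16, ARR15 and BGLU44 were also dim, with 0 h means of 1.38 ± 0.26, 1.99 ± 0.16 and 2.67 ± 0.56. The median gene had a mean level of 3.76.

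Other transcriptional regulators came up in both directions. MYBC1, a MYB-like factor of the GARP family described as a negative regulator of freezing tolerance, had log2 values of 4.44, 4.73 and 4.82 at 0 h and 5.78, 5.85 and 5.86 at 0.5 h. All 0.5 h arrays were higher, the rise was 1.17 (SE 0.11, 2.24-fold), the limma adjusted p was 4.09e-06, and no array left out ended the call (the highest adjusted p over all alternatives was 0.126, in the 6 arrays alone). The bHLH factor bHLH96 (AT1G72210), a relative of FAMA and the stomatal bHLH factors, rose by 0.80, from 3.62 ± 0.07 to 4.42 ± 0.20, with a limma adjusted p of 0.0386. Its call ended when any 1 of the 0 h arrays, or 0.5 h array 1 or 2, was left out (limma adjusted p 0.0516 to 0.199, and 0.0308 to 0.354 over all alternatives). AT2G12646, a PLATZ family zinc-binding regulator that has been studied for root meristem size, fell by 0.70 (-0.70), from 6.85 ± 0.11 to 6.15 ± 0.28, with a limma adjusted p of 0.00562. Only without 0.5 h array 2 did that gene miss the threshold among the fits that left out 1 array (0.0587, and 4.11e-04 to 0.622 over all alternatives). By symbol or synonym, 9 bHLH genes were measured, of which 1 rose, beside 0.145% of all genes. At an unadjusted limma p under 0.05 there were 3 of the 9, beside 7.63% of all genes. Of 7 WRKY genes, 0 passed the limma threshold and 0 reached an unadjusted p under 0.05, beside 0.224% and 7.63% of all genes. The bHLH genes SACL1 and SACL2 carry locus names and are not in that count.

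Several of the rises belonged to enzymes of the cell wall and the space around the cell. This grouping was made after the values had been seen, from general knowledge of the Arabidopsis annotation rather than from the tables used here, where 32 of the 37 genes have only a locus name. AT4G38650, the family 10 glycosyl hydrolase, had log2 values of 4.49, 4.82 and 4.39 at 0 h and 6.38, 7.03 and 6.85 at 0.5 h. Its lowest 0.5 h array stood well above its highest 0 h array, and its limma adjusted p was 5.03e-09 (SE 0.13). Over all alternatives it ran from 6.20e-12 to 0.0502, the latter in the fit of the 6 arrays.

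Pectin forms the gel of the primary wall, and several enzymes of the pectin lyase fold cut its chains. AT2G43870, of that fold, had log2 values of 5.48, 5.63 and 5.62 at 0 h and 6.83, 6.46 and 6.67 at 0.5 h, so that the groups lay well apart. The rise was 1.07 (SE 0.12) with a limma adjusted p of 8.70e-05, it held without any 1 array, and the adjusted p over all alternatives ran from 3.64e-06 to 0.126. AT3G59850, of the same fold, rose by 0.62, from 5.76 ± 0.11 to 6.38 ± 0.10 (limma adjusted p 0.0129). AT5G19730, a pectin methylesterase, rose by 0.60, from 6.37 ± 0.06 to 6.97 ± 0.16 (limma adjusted p 0.0101). The first of these lost its call without 0 h array 3 or without 0.5 h array 2 or 3 (0.0519 to 0.112), and the pectin methylesterase lost it without 0 h array 1 or 0.5 h array 3 (0.0610 and 0.0869). Over all alternatives their adjusted p ran from 0.00435 to 0.455 and from 0.00129 to 0.531. AT1G67750, a pectate lyase family gene, moved the other way by -0.46, from 6.70 ± 0.15 to 6.25 ± 0.07 (limma adjusted p 0.0386), a call that only the fit without 0 h array 3 kept among those that left out 1 array (0.0583 to 0.231 in the others, 0.0207 to 0.690 over all alternatives).

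GH9B18, a family 9 glycosyl hydrolase related to the endoglucanases, had log2 values of 3.43, 3.43 and 3.6 at 0 h, then 4.28, 5.17 and 4.39 at 0.5 h. The 0.5 h arrays were all higher, with array 2 well above the other two, and the rise was 1.13 (SE 0.23) with a limma adjusted p of 0.0386. It kept its call only without 0.5 h array 1 among the fits that left out 1 array, with 0.0514 to 0.212 in the others and 0.0175 to 0.455 over all alternatives. Extracellular or vacuolar proteases and peptidases followed. SCPL45, a serine carboxypeptidase-like gene, rose by 0.78, from 7.91 ± 0.16 to 8.69 ± 0.15 (limma adjusted p 0.00357), and held without any 1 array (9.71e-05 to 0.368 over all alternatives). ATSBT5.2, a subtilase, rose by 0.80, from 5.67 ± 0.22 to 6.47 ± 0.00 (limma adjusted p 0.0186), and kept its call only without 0 h array 3 among those fits (0.0583 to 0.153 in the others, 0.00140 to 0.354 over all alternatives).

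Secreted proteins of the cupredoxin and cupin type were among the falls. AT4G39830, of the ascorbate oxidase family, had log2 values of 4.57, 4.33 and 4.17 at 0 h, then 3.18, 3.35 and 3.1 at 0.5 h. The groups lay well apart, the change was -1.14 (SE 0.14, 2.21-fold lower), and the limma adjusted p of 2.63e-04 kept its side of the threshold without any 1 array (2.55e-04 to 0.126 over all alternatives). AT5G38960, a germin-like protein gene, had 3.35, 3.27 and 2.35 at 0 h and 2.00, 2.01 and 1.77 at 0.5 h, a change of -1.06 (SE 0.22) with a limma adjusted p of 0.0386. Its 0 h array 3 was close to the 0.5 h arrays, and of the fits without 1 array only the one without that array kept the call (0.102 to 0.231 in the others, 9.55e-04 to 0.630 over all alternatives).

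Of 60 genes whose names mark them as wall enzymes, GH9B18 alone rose and 0 fell, beside 0.224% of all genes called. At an unadjusted p under 0.05 there were 11 of the 60, beside 7.63% of all genes, and the median change of the 60 was 0.01. Among those 11, the expansin EXPA8 was at 0.60 (limma adjusted p 0.352) and the pectin methylesterase ATPMEPCRB at -0.87 (limma adjusted p 0.520), with other members on both sides. One of the 11, PWD, acts on starch and was matched by its name only. The pectin lyase-like genes above carry locus names and are not in that count.

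**Figure D2:**
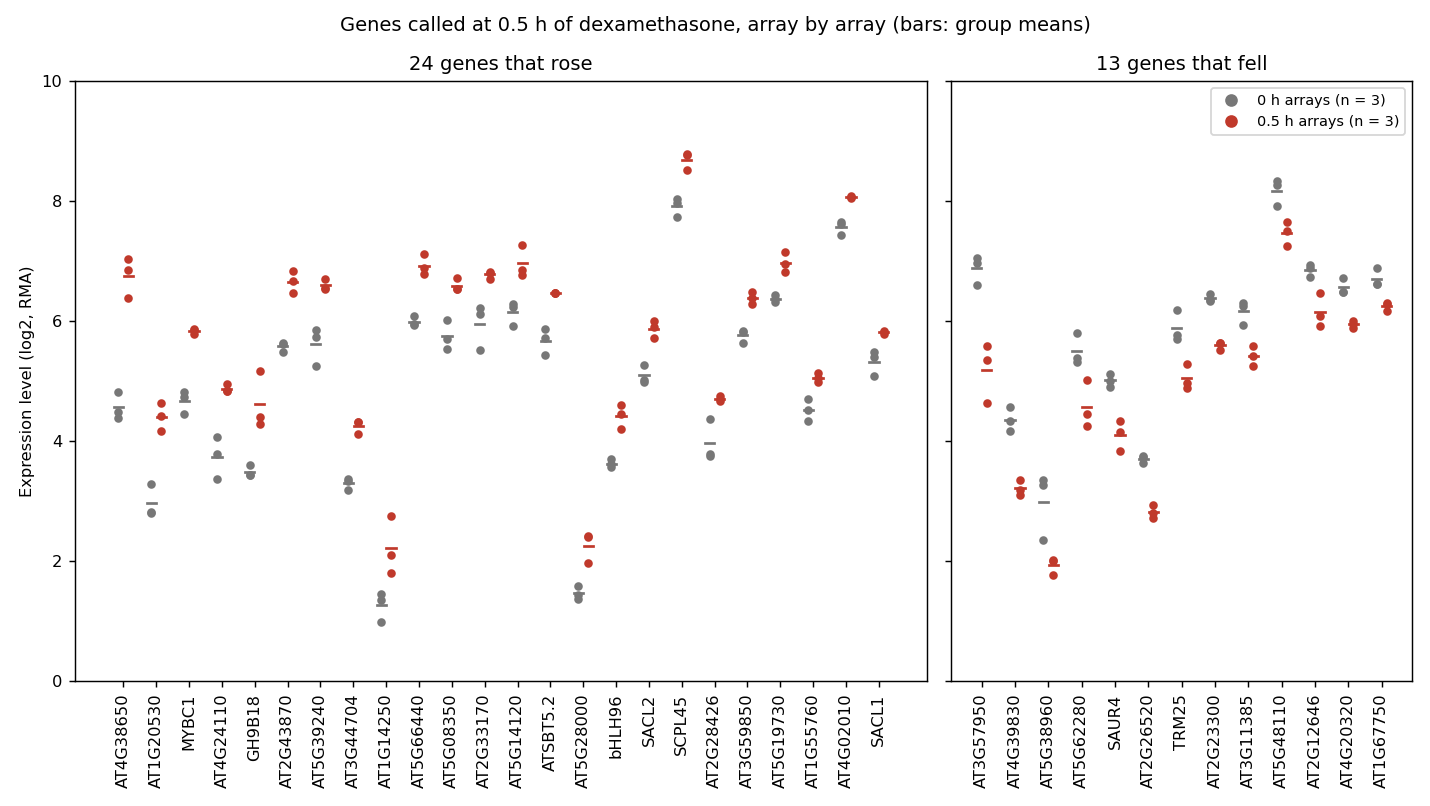
Each point is the log2 level of 1 gene on 1 array, for the 24 genes that rose (left) and the 13 that fell (right), with 0 h arrays in grey, 0.5 h arrays in red and short bars at the group means (n = 3). The groups do not overlap in any of the 37 genes, which were called on these same arrays, and this was so for 1729 genes in all (10.4%). The means of AT4G38650 lie farthest apart.

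Signalling proteins were found among rises and falls. AT2G33170, a leucine-rich repeat receptor-like kinase gene, had log2 values of 5.52, 6.22 and 6.11 at 0 h and 6.71, 6.80 and 6.82 at 0.5 h, a rise of 0.83 (SE 0.15) with a limma adjusted p of 0.0108. Its 0 h array 1 lay well below the other two, and the call ended without that array or without 0.5 h array 2 or 3 (0.0610 to 0.0730, and 0.00129 to 0.622 over all alternatives). AT4G02010, a protein kinase gene, rose by 0.50, from 7.57 ± 0.12 to 8.07 ± 0.02 (limma adjusted p 0.00787), and lost the call without array 2 of either time (0.0519 and 0.0584, range over all alternatives 4.35e-04 to 0.630). AT2G23300, another leucine-rich repeat receptor-like kinase gene, had 6.45, 6.33 and 6.36 at 0 h and 5.63, 5.51 and 5.64 at 0.5 h. Its groups were tight and far apart, with a change of -0.79 (SE 0.15), and yet the limma adjusted p of 0.0290 missed the threshold without any 1 of the 6 arrays (0.0514 to 0.156, and 0.00667 to 0.175 over all alternatives).

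One hormone response gene was called. SAUR4 (AT4G34800), of the small auxin up RNA family, had log2 values of 5.01, 4.90 and 5.12 at 0 h and 3.83, 4.33 and 4.15 at 0.5 h, a change of -0.91 (SE 0.16) with a limma adjusted p of 0.0103. The groups were well apart, and the call ended only without 0.5 h array 1 among the fits that left out 1 array (0.0959, and 0.00525 to 0.354 over all alternatives). Of the 20 listed auxin response genes, which include Aux/IAA repressors and GH3 conjugating enzymes, 8 were measured. Of these 8, 0 were called by limma, beside 0.224% of all genes. Of the 8, IAA20 alone was at an unadjusted p under 0.05, beside 7.63% of all genes. IAA20 was at 1.58, 1.78 and 1.1 at 0 h and 2.89, 2.40 and 1.63 at 0.5 h, with overlap, a change of 0.82 and a limma adjusted p of 0.427. The median change of the 8 was 0.12.

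A membrane transporter and proteins of uncertain place in signalling made up another set. AT5G14120, a nodulin-like gene of the major facilitator superfamily, rose by 0.82, from 6.14 ± 0.20 to 6.96 ± 0.27 (limma adjusted p 0.00787), and lost its call without array 2 of either time (0.0584 and 0.0730, range over all alternatives 6.13e-04 to 0.531). AT5G08350, which encodes a GRAM domain protein, had log2 values of 5.53, 6.02 and 5.71 at 0 h and 6.54, 6.71 and 6.53 at 0.5 h, a rise of 0.84 (SE 0.17) with a limma adjusted p of 0.0386. Its 0.5 h arrays were all higher, yet only the fit without 0 h array 2 kept the call among those without 1 array (0.0710 to 0.231 in the others, 0.00931 to 0.369 over all alternatives). AT1G55760, a BTB/POZ domain gene, rose by 0.54, from 4.52 ± 0.18 to 5.06 ± 0.07 (limma adjusted p 0.0386), again with a call kept only without 0 h array 2 among those fits (0.0602 to 0.231 in the others, 0.0255 to 0.654 over all alternatives).

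AT1G14250, of the apyrase-like nucleoside phosphatases, was the dimmest of the called genes, with log2 values of 1.45, 0.98 and 1.35 at 0 h, then 2.1, 2.75 and 1.80 at 0.5 h. The 0.5 h arrays were higher but scattered, the rise was 0.95 (SE 0.20), and the limma adjusted p was 0.0420. Only without 0.5 h array 3 did it keep the call among the fits that left out 1 array (0.0544 to 0.241 in the others, 0.0160 to 0.686 over all alternatives).

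AT3G57950 had the largest fall of the called genes, and no role is given here for its product. Its log2 values were 6.97, 6.60 and 7.05 at 0 h and 5.59, 4.63 and 5.35 at 0.5 h, a change of -1.69 (SE 0.22, 3.22-fold lower) with a limma adjusted p of 5.28e-04. Every 0.5 h array was more than 1 below every 0 h array, and the call held without any 1 array (9.23e-05 to 0.197 over all alternatives). TRM25, of the TON1 recruiting motif family, whose members bring proteins to the cortical microtubules, had 6.19, 5.76 and 5.70 at 0 h, then 5.27, 4.89 and 4.97 at 0.5 h. The groups did not meet, the change was -0.84 (SE 0.13), and the limma adjusted p of 0.00262 also held without any 1 array (0.00129 to 0.486 over all alternatives).

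Further genes without a stated role rose strongly. AT1G20530 had log2 values of 2.81, 3.29 and 2.82 at 0 h and 4.41, 4.63 and 4.17 at 0.5 h, a rise of 1.43 (SE 0.18, limma adjusted p 2.63e-04). AT4G24110 had 3.37, 3.78 and 4.06 at 0 h and 4.83, 4.95 and 4.84 at 0.5 h, a rise of 1.13 (SE 0.16, limma adjusted p 0.00144). In both genes the 0.5 h arrays were all higher, and in AT4G24110 the 0 h arrays spread over a wider range than the 0.5 h arrays. AT5G66440 had 5.94, 5.95 and 6.08 at 0 h and 6.88, 7.11 and 6.78 at 0.5 h, a rise of 0.94 (SE 0.10, limma adjusted p 8.53e-05).

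AT5G39240 had 5.25, 5.74 and 5.85 at 0 h and 6.55, 6.53 and 6.70 at 0.5 h, a rise of 0.98 (SE 0.14, limma adjusted p 0.00130). AT3G44704 had 3.33, 3.37 and 3.18 at 0 h and 4.12, 4.32 and 4.31 at 0.5 h, a rise of 0.96 (SE 0.15, limma adjusted p 0.00357). Neither gene overlapped between the groups. AT1G20530, AT4G24110, AT5G66440, AT5G39240 and AT3G44704 all kept their calls without any 1 array. AT3G44704 missed the threshold when array 3 of both times was left out together (0.0670). Over all alternatives the limma adjusted p ran from 9.71e-05 to 0.126 for AT1G20530 and from 0.00253 to 0.126 for AT3G44704. It ran up to 0.255 for AT4G24110, 0.165 for AT5G66440 and 0.354 for AT5G39240, each in the fit of the 6 arrays.

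The other calls were smaller or less steady. AT5G28000, a gene of the Bet v 1-like major latex protein family, rose by 0.80 from a low level (1.46 ± 0.11 to 2.26 ± 0.25, limma adjusted p 0.0386), and AT2G28426 rose by 0.73 (3.97 ± 0.35 to 4.70 ± 0.05, limma adjusted p 0.0417). AT5G28000 lost its call without array 1 or 2 of either time (0.134 to 0.190), and AT2G28426 kept it only without 0 h array 3 (0.114 to 0.235 in the others). Over all alternatives they ran from 0.0227 to 0.442 and from 0.00223 to 0.643. Among the 8 largest falls, AT5G62280 had log2 values of 5.80, 5.38 and 5.31 at 0 h and 5.02, 4.44 and 4.26 at 0.5 h, a change of -0.92 (limma adjusted p 0.00906). AT2G26520 had 3.74, 3.75 and 3.63 at 0 h and 2.93, 2.72 and 2.80 at 0.5 h, a change of -0.89 (limma adjusted p 0.00765). Neither overlapped between groups. AT5G62280 lost its call without 0 h array 1 or 0.5 h array 2 or 3 (0.0784 to 0.0806), and AT2G26520 without 0.5 h array 2 (0.0601). Over all alternatives they ran from 4.16e-04 to 0.630 and from 0.00554 to 0.129.

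The remaining falls belonged to enzymes of metabolism and to a protein with C1 domains. AT5G48110, a terpene synthase gene, fell from 8.17 ± 0.23 to 7.46 ± 0.20 (-0.71, limma adjusted p 0.00792), and AT4G20320, a CTP synthase gene, from 6.56 ± 0.13 to 5.94 ± 0.06 (-0.62, limma adjusted p 0.0229). AT3G11385, which encodes a protein with C1 domains, fell from 6.16 ± 0.20 to 5.42 ± 0.17 (-0.74, limma adjusted p 0.00797). Their calls were not equally steady. The terpene synthase lost its call without 0 h array 1 or 2 or 0.5 h array 2 (0.0573 to 0.0784), and AT3G11385 without 0 h array 1 or 0.5 h array 1 or 2 (0.0519 to 0.0821). AT4G20320 kept it only without 0 h array 3 (0.0507 to 0.153 in the others). Over all alternatives the 3 genes ran from 4.35e-04 to 0.630, from 0.00174 to 0.455 and from 0.0103 to 0.442.

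Just outside the threshold, other genes of the same kinds were found. AT2G43880, a pectin lyase-like gene that follows AT2G43870 in the RefSeq order of genes, was at 0.51 (limma adjusted p 0.0582), and AT1G19170, of the same fold, at 0.55 (limma adjusted p 0.0689). AT5G02580 was at 0.61 (0.0576), AT3G56220 at 0.91 (0.0701) and the leucine-rich repeat kinase gene AT1G68400 at 0.59 (0.0701), all by limma. On the side of the falls, the calmodulin-binding IQ-domain gene IQD26 was at -0.52 (0.0576), followed by AT5G62730 at -0.67 and AT2G04500 at -0.48 (both 0.0701), AT2G27280 at -0.79 (0.0849) and AT1G24388 at -0.38 (0.0887). For comparison, the last called rise was SACL1, with an adjusted p of 0.0451. Of the genes directly before or after a called gene in that order, 58 were measured. Of these, 0 were called by limma, beside 0.224% of all genes. At an unadjusted p under 0.05 there were 7 of the 58, beside 7.63% of all genes, and no effect of position was tested. The 7 include AT2G43880 and AT4G39840, the latter next to the ascorbate oxidase family gene, at -0.38 (limma adjusted p 0.174).

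Genes known to react within minutes to touch, wounding or immune signals were listed too, but an effect of handling was not tested. Of 51 such genes listed, 10 were measured, too few to read an absence of calls. Of the 10, 0 passed the limma threshold, beside 0.224% of all genes. At an unadjusted p under 0.05 there were 0, beside 7.63% of all genes. The median change of the 10 was -0.13. They ran from -0.68 for ORA47, an ERF factor of the jasmonate response, to 0.20 for the calmodulin-like CML38. ORA47 lay at 4.90, 4.47 and 3.73 at 0 h and 3.37, 4.64 and 3.03 at 0.5 h, a wide scatter in both groups. No heat stress gene of the 10 listed was measured, and the 2 measured of 25 clock genes, GI and RVE6, were at 0.01 and -0.16.

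Cell cycle genes and cell type markers showed no call either. The cell cycle genes measured were 4 of 13, with changes of -0.01 for the mitotic kinase AUR1, 0.27 for AUR2, -0.05 for the replication gene PRL and -0.09 for the polymerase gene ICU2. The phloem genes OPS and CLE45 were at 0.13 and 0.09 and the root hair expansins EXPA7 and EXPA18 at 0.13 and 0.12. The cortex gene CO2 (AT1G62500) was at -0.40, with an unadjusted p of 0.0339 and a limma adjusted p of 0.597, BBM at -0.22 and RCA at 0.23. In total, 42 of the 209 genes in 17 lists had a probe set with a single name, so most of these lists were read through few members. By name, 26 cytochrome P450, 13 glutathione S-transferase, 12 transporter, 10 peroxidase, 8 calmodulin-like, 7 defensin-like and 5 histone genes were also measured. Of these, 0 passed the limma threshold, beside 0.224% of all genes. At an unadjusted p under 0.05 there were 2 (1 calmodulin-like and 1 histone gene), beside 7.63% of all genes. The families with a call are given by name too. Of 13 genes of auxin-responsive families, SAUR4 alone was called, and 2 were at an unadjusted limma p under 0.05. Of 2 MYB or GARP genes, MYBC1 alone was called.

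The course of the early genes after 0.5 h differed from gene to gene. Changes at later times share the 0 h arrays with the 0.5 h change, so the values stand side by side and are not independent of it. At 0.5, 1, 2, 3 and 6 h, AT4G38650 was 2.18, 2.97, 2.49, 1.59 and 1.07 above its 0 h mean. AT4G24110 was 1.13 above 0 h at 0.5 h and 0.44 at 1 h, and lay between -0.07 and 0.09 from 2 h on. AT1G14250 was at 0.95 and then at 0.05 by 1 h, and GH9B18 went from 1.13 to 0.60 and 0.22 at 1 and 2 h. In AT4G24110, AT1G14250 and GH9B18 the group mean was thus raised only briefly. The arrays of 0 h and 0.5 h together chose the early genes. The choice on the 0.5 h arrays favours a smaller change at later times, for rises and falls alike. The choice on the 0 h arrays, which every later change shares, favours a change that lasts. How much of a return or of a lasting change this explains was not tested. AT1G14250, the dimmest called gene, lost its 0.5 h call in 9 of 13 alternatives, and GH9B18 in 10 of 14. AT4G24110 lost it in 0 of 14. These counts leave out the fit of the 6 arrays alone.

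Other genes stayed up or climbed further. AT5G39240 lay between 0.80 and 1.09 above 0 h at every time, and AT5G66440 between 0.71 and 1.01. ATSBT5.2 was 0.80, 1.27, 1.85 and 1.44 above 0 h at 0.5, 1, 3 and 6 h. SACL2 took another course, at 0.78, 0.41, 0.30 and 0.68 above 0 h at 0.5, 1, 2 and 6 h, with limma adjusted p of 0.132 at 1 h and 0.263 at 2 h. The later genes differed from these: at 0.5, 1 and 2 h the change was 0.12, 0.68 and 1.11 for DOF2.1 and -0.08, 0.32 and 2.15 for BGLU44.

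The falls too were of both kinds. AT4G39830 stood at -1.14 after 0.5 h and at -1.25 after 6 h. At 0.5, 1 and 2 h the change was -0.84, -1.02 and -1.05 for TRM25 and -1.69, -0.78 and -1.13 for AT3G57950. At the same times it was -0.74, -0.11 and 0.10 for AT3G11385 and -0.91, -0.34 and -0.11 for SAUR4, which were thus near the 0 h level again by 2 h. The highest group mean of the course was at 0.5 h for 12 of the 24 rises and at 1 h for 7, and the lowest mean was at 0.5 h for 9 of the 13 falls, but the 0.5 h arrays chose these genes and that favours 0.5 h in such a count.

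**Figure D3:**
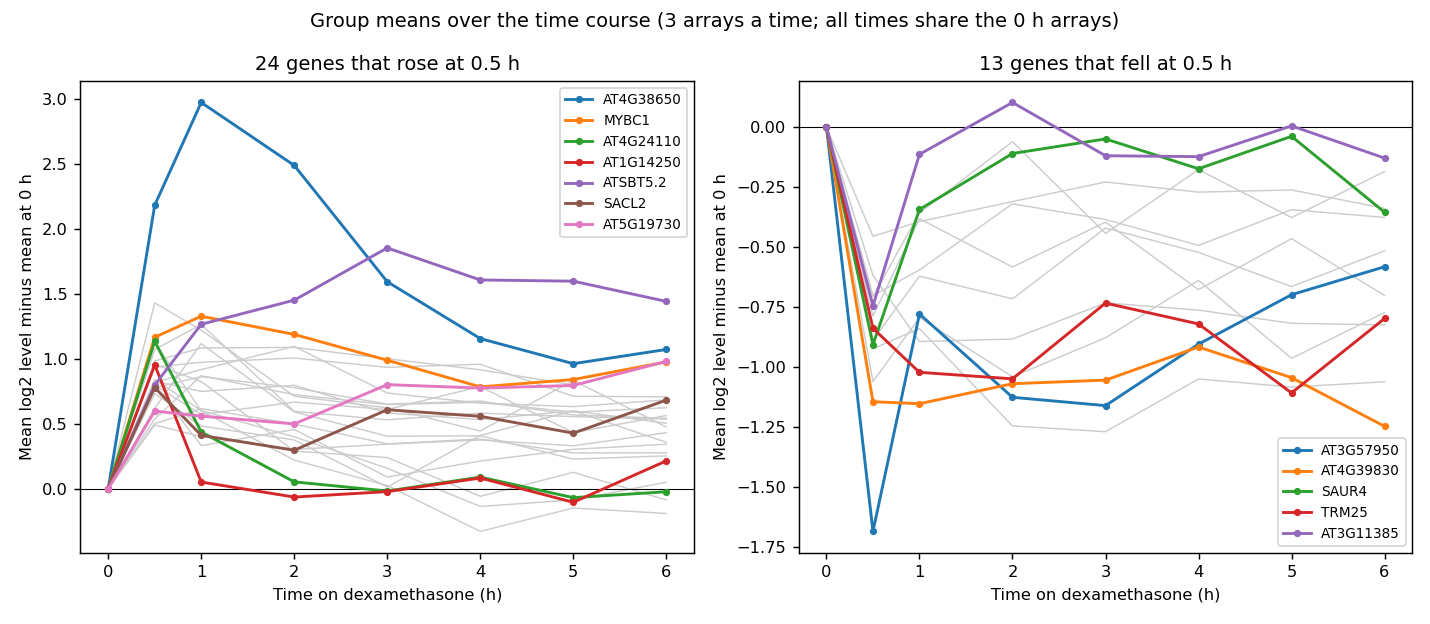
Lines give each gene's mean log2 level minus its 0 h mean (y axis) at each time in hours on dexamethasone (x axis, n = 3 a time), for the 24 genes that rose (left) and the 13 that fell (right), with 12 genes in colour and the others in grey. AT4G38650 reaches 2.97 at 1 h, AT4G24110 is near 0 from 2 h on, ATSBT5.2 reaches 1.85 at 3 h, and AT3G11385 and SAUR4 return to near 0.

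The change from 1 h to 6 h is a difference between arrays that do not enter the 0.5 h change, and it was tested in the same fit. It is not independent of how the early genes were chosen, because both tests use the spread estimated from all 24 arrays. Over all genes, 175 were higher at 6 h (1.06%) and 98 lower (0.592%), together 1.65%, with a median change of -0.03. With each array centred on its median that split was 132 higher and 150 lower, and without 1 h array 1 it was 75 and 82. Of the 24 genes that had risen at 0.5 h, 6 were lower at 6 h than at 1 h, 1 was higher and 17 were not called, with a median change of -0.26. At an unadjusted p under 0.05 there were 15 of the 24, beside 14.4% of all genes. Of the 13 that had fallen, 0 were called by limma, 1 was at an unadjusted p under 0.05 and the median change was 0.06.

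AT4G38650 had log2 values of 7.52, 7.52 and 7.58 at 1 h and 5.68, 5.60 and 5.63 at 6 h, a change of -1.90 (SE 0.13, limma adjusted p 6.71e-08). AT3G44704 had 4.37, 3.88 and 4.11 at 1 h and 3.21, 3.26 and 3.15 at 6 h, a change of -0.91 (limma adjusted p 0.00232). Both were lower on every 6 h array than on any 1 h array, and so were the pectin lyase-like genes. AT3G59850 went from 6.88 ± 0.04 at 1 h to 6.02 ± 0.04 at 6 h (-0.86, limma adjusted p 2.76e-04), and AT2G43870 from 6.84 ± 0.12 to 6.12 ± 0.08 (-0.73, limma adjusted p 0.00284). These 4 genes kept the call without any 1 array of 1 h or 6 h.

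The other calls in this comparison were less steady. AT1G20530 was lower at 6 h by -0.75 (limma adjusted p 0.0366) and the kinase gene AT4G02010 by -0.34 (limma adjusted p 0.0443), and both lost the call without 1 h array 1 or 3 or any 1 of the 6 h arrays. There their adjusted p was 0.0819 to 0.145 and 0.0682 to 0.200, and over all alternatives 0.0152 to 0.145 and 0.00956 to 0.200. The pectin methylesterase AT5G19730 was the exception in direction, at 6.84, 7.03 and 6.92 at 1 h and 7.33, 7.40 and 7.32 at 6 h. Its rise of 0.42 (limma adjusted p 0.0443) was lost without any 1 of the 6 arrays (0.0615 to 0.160) and with median centring (0.0742), and ran from 0.0143 to 0.160 over all alternatives. As a count, 7 of the 37 genes were called with all arrays, 6 without 1 h array 2 and 4 without any other 1 of the 6 arrays.

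**Figure D4:**
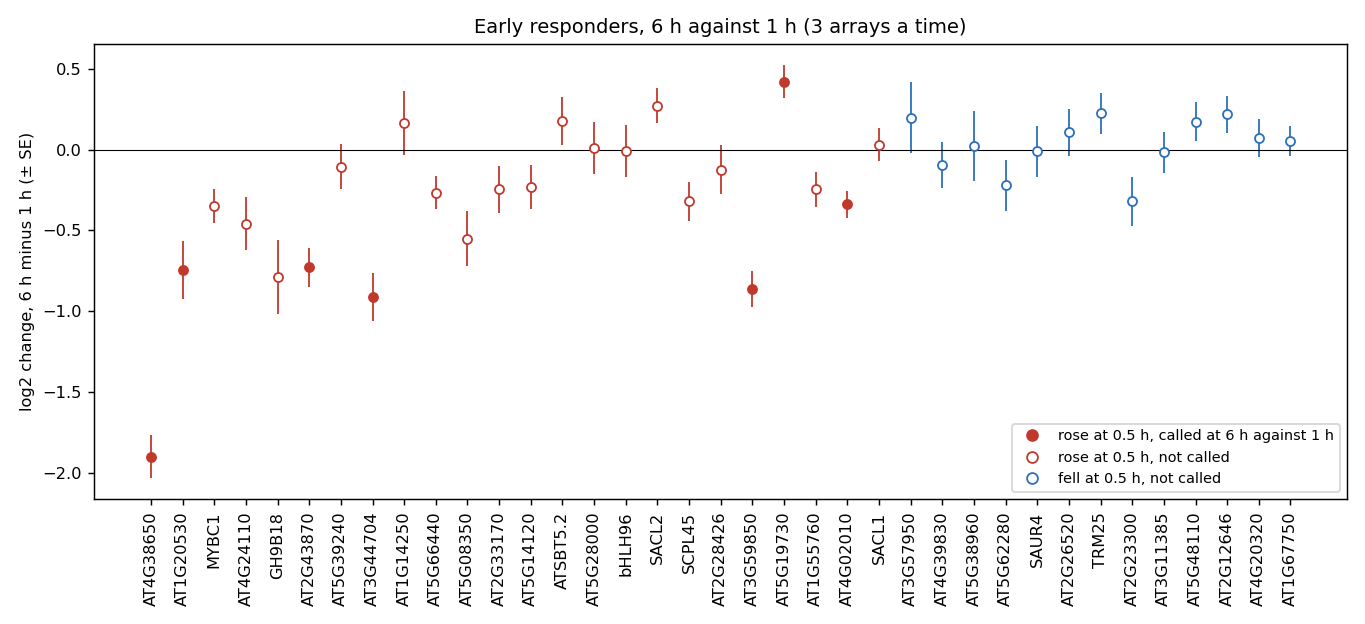
Points give the log2 change from 1 h to 6 h (y axis) with its standard error as a bar, for each of the 37 genes called at 0.5 h (x axis, by size of the 0.5 h change), in red where it rose and blue where it fell at 0.5 h, and filled where it was called at 6 h against 1 h. AT4G38650 lies lowest at -1.90, AT5G19730 is the filled point above 0 at 0.42, and no gene that fell is filled.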

How the data were processed

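Total RNA of root meristems was labelled and hybridised to Affymetrix whole-transcript arrays, 24 in all. The authors deposited log2 values per probe set that RMA produced, per the submitters' processing notes. RMA corrects background, applies quantile normalization and summarises probes. Its version and the genome build of the array are not named in the sources. Because RMA makes arrays alike in distribution, a shift shared by most genes can be lost. Array medians lay from 3.86 to 4.01 and values from 0.154 to 13.2, and precision is limited by the number of arrays.

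Of 38408 probe sets, the platform annotation gave 16746 a single gene, 758 several and 20904 none. Single-gene probe sets were averaged per gene (16552 genes, 165 with several probe sets), and the RefSeq table of TAIR10.1, which matched 16601 probe sets, gave current symbols. For all 24 arrays together, lmFit and eBayes of limma 3.58.1 (R 4.3.3) estimated 1 mean per time, and a gene counted as called where its p, adjusted by Benjamini-Hochberg, was under 0.05. The shared spread can understate the error at 0 h, where the residual SDs were 0.197 to 0.215.

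Every called gene is named. The 12 largest rises and 8 largest falls are given array by array, with the 5 genes nearest the threshold on each side, up to 3 called and 2 other members of each list, and DOF2.1, LHW, SACL1 and SACL2; a few further list members are named to complete a count. The genes, lists and comparisons were chosen with earlier results of these data known, and no set test was run. Gene families were matched on symbols and synonyms only. The alternatives were array weights, a trended robust variance, centring on array medians, quantile normalization a second time, the repeat number as a block, no dim genes (lowest 25%), the brightest probe set, a log2 change of at least 1, all probe sets, the 6 arrays alone, and leaving out arrays. Motifs in promoters were not analysed here.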

Additional observations from a re-analysis of the deposited data

Results flagged for a closer look

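Probe sets without a gene name in the platform annotation form no part of the comparison above. In a limma fit of all probe sets, 25 of the 20904 unnamed ones (0.12%) were called at 0.5 h against 0 h, 14 higher and 11 lower. The largest rise among them, probe set 13459467, had log2 values of 3.94, 5.00 and 3.89 at 0 h and 7.71, 7.98 and 7.80 at 0.5 h, a change of 3.55 (SE 0.20, limma adjusted p 2.37e-08), which is more than that of any named gene. Probe set 13397418 rose by 1.39 (limma adjusted p 4.56e-05). The largest falls were -1.32 for probe set 13507852 (limma adjusted p 0.00210) and -1.12 for probe set 13452744 (limma adjusted p 0.0183). What these probe sets measure was not analysed here. No outlier test within a group was applied, since each group has 3 arrays.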

How the results depend on the processing

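The count of 37 genes called at 0.5 h was 23 with array weights, 56 over all probe sets by ID, 9 with a log2 change of at least 1, and 0 in the fit of the 6 arrays alone (905 at an unadjusted p under 0.05). Without 1 array it ran from 17 to 64. With the repeat number as a block it was 29, and 26 of the 37 genes were among those. The deviations of same-numbered arrays of 0 h and 0.5 h correlated at 0.0794, 0.0390 and 0.181 over genes. Each array correlated best with its own number, a hint from the data and not from the design. For 0 h array 2 the margin was narrow, with 0.0390 beside 0.0305 for 0.5 h array 1. Deviations are taken from the mean of their own time, so these correlations depend on one another. Array 3 also lay highest of its time on the first principal component at every time but 6 h. The main fit held no term for the repeat number. With the block, 1387 genes were at an unadjusted limma p under 0.05, against 1263 in the main fit. What arrays of the same number share was not tested. The count of early genes called at 6 h against 1 h ran from 4 to 6 without 1 array, against 7 with all. No direction of the 37 turned in the alternatives computed gene by gene, and where arrays were left out or weighted none could, as their groups do not overlap. The values carry no detection calls, so signal over background could not be judged. The analysis of promoter motifs was not run.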
